A study of Mus musculus with 6 samples.

Results

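The neurotrophin system was described from 7 genes of the deposited table. Earlier results of these data were known, but the genes were chosen by name and by no measured value. They were 3 ligand genes (Bdnf, Ntf3 and Ntf5) and 4 receptor genes (Ngfr, Ntrk2, Ntrk3 and Sort1), out of 53421 genes in the table. All 7 were found by their Ensembl identifiers in the annotation of GRCm38.

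The libraries came from granule cells (GCs) cultured from the cerebellum of C57BL/6 mouse pups, which the labels give as postnatal day 8. The cells of 3 libraries had received lentivirus with a short hairpin RNA against Ythdf2 (shYthdf2) and the cells of 3 libraries lentivirus with a control hairpin (shCtrl), and all were then selected with puromycin. YTHDF2 is a cytoplasmic protein that binds mRNA carrying N6-methyladenosine (m6A) and speeds its decay, and the question was which mRNAs differed in level after its knockdown (KD). The names of the KD libraries carry the number of 1 hairpin, and whether the libraries were separate cultures or separate litters is not given in the labels. The sample titles and the library names contradict each other on which 3 libraries are the KD. The library names were followed here, and every direction below would be inverted if the titles were right.

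Libraries of each group are numbered 1, 2 and 4 after their names, and they held 17246821 to 21546595 counts. Ythdf2 itself had 501, 402 and 501 normalized counts in shYthdf2 libraries 1, 2 and 4 and 618, 841 and 628 in shCtrl libraries 1, 2 and 4, so the groups did not overlap, but the difference missed the threshold (log2 fold change -0.57, SE 0.16, adjusted p = 0.125 by edgeR). Normalized counts are counts scaled by TMM to a common library size, and they compare 1 gene between libraries. The libraries numbered 2 stood apart from the others in both groups. Chi-square per degree of freedom over genes was 3.34 between shYthdf2 libraries 1 and 4 and 4.64 between shCtrl libraries 1 and 4, against 32.9 to 54.8 between library 2 and the others of its group. It was 22.1 between the libraries numbered 2 of the opposite groups. All 12 GC markers passed the filter on low counts. Their summed level, in which Zic1 and Reln were the largest terms, was 203600 to 207500 normalized counts in shYthdf2 and 202000 to 215000 in shCtrl. Single markers differed, with 7 fitted higher, 5 lower and 0 past the threshold. Groups did not overlap for Neurod1 (log2 fold change -0.32), Tubb3 (-0.43) and Cbln1 (-0.64) among the lower. The same held for Rbfox3 (0.05) and Reln (0.27) among the higher, and for 26.0% of all genes. In bulk RNA, fewer cells of a type and less RNA per cell cannot be told apart.

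Neurotrophins are secreted growth factors that are made as precursors and cleaved to the mature form. BDNF and neurotrophin 4 act through the receptor tyrosine kinase TrkB, and neurotrophin 3 acts through TrkC, while all of them bind the p75 receptor (p75NTR), and the precursors also bind sortilin. In the cerebellum BDNF and neurotrophin 3 are known for their roles in the survival, migration and axon growth of GCs. Bdnf is transcribed from several start sites, some of which respond to neuronal activity through the factors CREB and AP-1.

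The 300-base windows around the start sites, from 250 bases before to 50 bases after each start (RefSeq, GRCm38.p6), were read for the members with an entry. There were 11 windows, 7 for Bdnf, 2 for Ntf3, 1 for Ngfr and 1 for Ntrk2. They were searched on both strands for the cAMP response element TGACGTCA, for TCACGTCA, which differs from it by 1 base, for the AP-1 site TGANTCA and for the E-box CACGTG. The first was in 1.79% of 32851 windows of all genes, the second in 0.441%, the third in 7.81% and the last in 7.15%. Both Bdnf windows with a match are shown because Bdnf had the largest difference among the members, and the matched letters are in capitals. The element TCACGTCA began 38 bases before one Bdnf start, and TGANTCA began 152 bases before another. An E-box began 231 bases before one Ntf3 start. The remaining 8 windows held none of the 4 motifs, which says only that these letters are not in them.
Bdnf, chr2:109692186-109692485, plus strand: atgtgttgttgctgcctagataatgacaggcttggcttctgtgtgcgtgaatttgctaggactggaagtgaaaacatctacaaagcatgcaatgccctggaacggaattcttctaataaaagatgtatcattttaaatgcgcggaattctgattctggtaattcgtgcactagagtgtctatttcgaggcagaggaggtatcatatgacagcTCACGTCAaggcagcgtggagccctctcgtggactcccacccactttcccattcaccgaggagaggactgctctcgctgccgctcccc
Bdnf, chr2:109676782-109677081, plus strand: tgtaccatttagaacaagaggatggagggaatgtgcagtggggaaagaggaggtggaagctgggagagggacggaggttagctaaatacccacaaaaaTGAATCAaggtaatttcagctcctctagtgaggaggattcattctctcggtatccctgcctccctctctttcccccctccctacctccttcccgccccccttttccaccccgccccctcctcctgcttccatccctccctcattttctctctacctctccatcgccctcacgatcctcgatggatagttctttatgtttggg

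Among the ligands, Bdnf mRNA was at 10.1% of its shCtrl level in shYthdf2 cells, Ntf3 differed by less than the spread between libraries, and Ntf5 was close to absent. Bdnf (ENSMUSG00000048482, chr2:109674700-109727007, plus strand) had 30.3, 69.8 and 21.2 normalized counts in shYthdf2 libraries 1, 2 and 4, and 530, 149 and 522 in shCtrl libraries 1, 2 and 4. The groups did not overlap, and library 2 was the highest of the shYthdf2 group and the lowest of the shCtrl group. The means were 40.5 ± 25.8 and 401 ± 218 (SD, n = 3), which is 9.81-fold lower after KD. The log2 fold change was -3.29 (SE 0.61, 95% interval -4.71 to -1.87), the 11th largest in size among 17214 genes tested. Its p-value was 8.08e-04 and its adjusted p was 0.0584 by edgeR's quasi-likelihood test, which missed the threshold of 0.05. The exact permutation test gave p = 0.1, the smallest it can give with 3 libraries against 3.

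Within libraries of the same number, the log2 difference in Bdnf was -4.11 for number 1, -1.09 for number 2 and -4.59 for number 4. Without both libraries numbered 2, the log2 fold change was -4.35 with an adjusted p of 4.43e-12 by edgeR. This fit rested on the pair of closely alike libraries in each group, and it called 52.7% of all genes. Bdnf also passed with DESeq2 (adjusted p = 1.19e-07), with no filter on low counts (0.00197) and with a separate term for the libraries numbered 2 (0.0249). Over all genes these settings called 7.67%, 1.98% and 22.1%. Bdnf did not pass with limma-voom (0.101), without shYthdf2 library 1 (0.303) or 4 (0.280), or without shCtrl library 1 (0.258) or 4 (0.241). Limma-voom called 0.139% of all genes, and each of these left-out fits called 0. In all, 6 of the 15 alternatives passed for Bdnf.

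**Figure D1:**
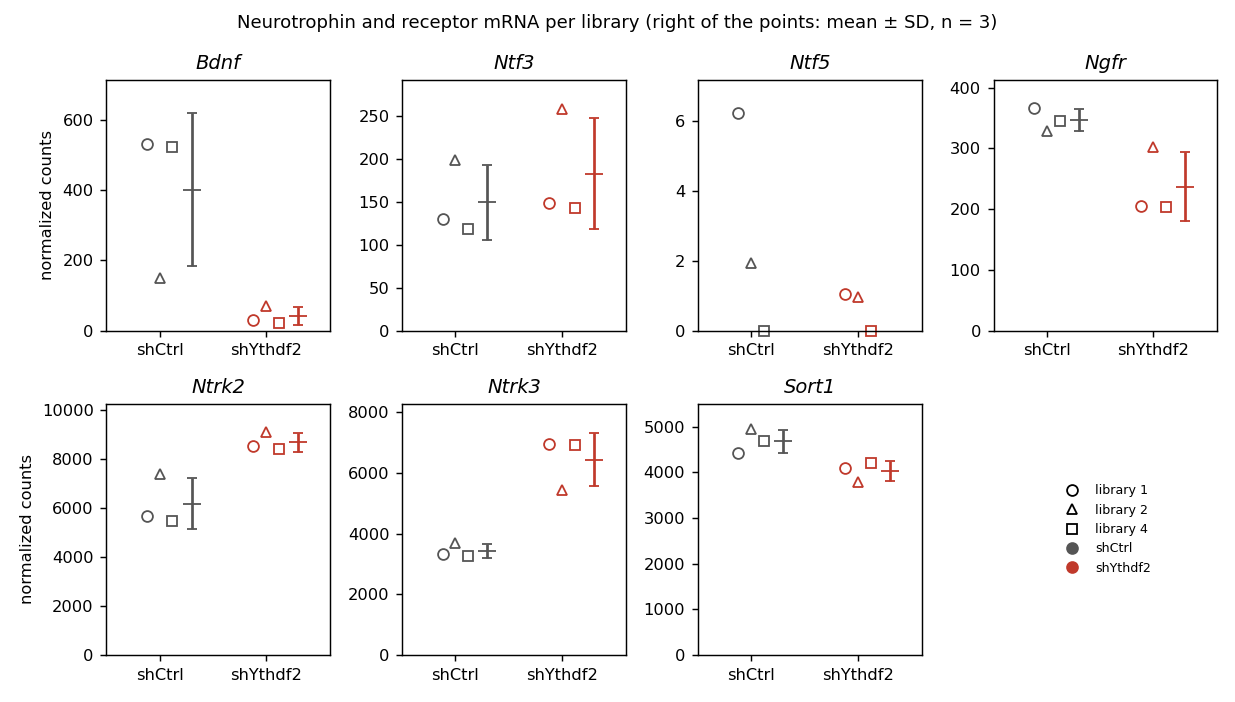
Normalized counts (linear y axis from 0) of the 7 genes in each library, with shCtrl in grey and shYthdf2 in red, and the mean ± SD (n = 3) to the right of the points except for Ntf5. Bdnf, Ngfr and Sort1 lay lower and Ntrk2 and Ntrk3 higher in all 3 shYthdf2 libraries, whereas Ntf3 overlapped and was highest in library 2 of both groups.

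Ntf3 (ENSMUSG00000049107, chr6:126101412-126166910, minus strand) encodes neurotrophin 3, the ligand of TrkC. It had 149, 258 and 142 normalized counts in shYthdf2 libraries 1, 2 and 4 and 130, 199 and 119 in shCtrl. The groups overlapped, and library 2 was the highest in each. The log2 fold change was 0.29 (SE 0.31, 95% interval -0.42 to 1.01, adjusted p = 0.634 by edgeR, exact permutation p = 0.5). Within numbers 1, 2 and 4 the log2 difference was 0.19, 0.38 and 0.26, and with the replicate number as a block the log2 fold change was 0.28 (SE 0.13, adjusted p = 0.212). It was -0.04 when shYthdf2 library 2 alone was left out and 0.22 without both libraries numbered 2.

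Ntf5 (ENSMUSG00000074121, chr7:45413695-45417179, plus strand) encodes neurotrophin 4, the other ligand of TrkB. It had 1, 1 and 0 raw counts in shYthdf2 and 7, 2 and 0 in shCtrl, and was removed by the filter on low counts. A difference was not detectable at this depth.

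Among the receptors, Ntrk3 rose to 188% of its shCtrl level and was the only one of the 7 genes past the adjusted threshold. Ntrk2 was at 141%, Ngfr at 68.3% and Sort1 at 86.1% of shCtrl, with no overlap between groups, but none of them passed. Ntrk3 (ENSMUSG00000059146, chr7:78175959-78738012, minus strand) encodes TrkC. It had 6962, 5427 and 6914 normalized counts in shYthdf2 libraries 1, 2 and 4 and 3309, 3689 and 3265 in shCtrl. Library 2 was the lowest of the shYthdf2 group and the highest of the shCtrl group, so the difference was smallest there. The means were 6434 ± 872 and 3421 ± 233 (SD, n = 3), 1.88-fold higher after KD. The log2 fold change was 0.91 (SE 0.13, 95% interval 0.62 to 1.21, adjusted p = 0.0464 by edgeR, exact permutation p = 0.1), and within numbers 1, 2 and 4 the log2 difference was 1.07, 0.56 and 1.08.

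The call of Ntrk3 was close to the threshold. The adjusted p was 0.0528 by limma-voom, 0.286 without shYthdf2 library 1, 0.269 without shYthdf2 library 4, 0.258 without shCtrl library 1 and 0.241 without shCtrl library 4. In each of these left-out fits 0 genes of the whole table were called, and limma-voom called 0.139%, so a miss there is not particular to Ntrk3. In all, 10 of the 15 alternatives passed for Ntrk3, among them DESeq2 (adjusted p = 4.51e-07), which called 7.67% of all genes. The log2 fold change stayed between 0.85 and 1.07 under all 15 alternatives.

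Ntrk2 (ENSMUSG00000055254, chr13:58806569-59133970, plus strand) encodes TrkB, the receptor of BDNF and neurotrophin 4. It had 8526, 9118 and 8409 normalized counts in shYthdf2 libraries 1, 2 and 4 and 5664, 7389 and 5483 in shCtrl. The shYthdf2 libraries lay close together, and shCtrl library 2 was the nearest to them. Its log2 fold change was 0.49 (SE 0.13, 95% interval 0.18 to 0.81, adjusted p = 0.117 by edgeR, exact permutation p = 0.1). The log2 difference was 0.59, 0.30 and 0.62 within numbers 1, 2 and 4. Without both libraries numbered 2 the log2 fold change was 0.60 (adjusted p = 1.73e-09 by edgeR), where 52.7% of all genes were called. With DESeq2, which called 7.67%, the adjusted p was 0.0298, and 4 of the 15 alternatives passed in all.

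Glia and other neurons are also known to express Trk receptors, so markers of other cell types were summed in each library. Of these sums, only that of the GABAergic interneuron list did not overlap between the groups. The oligodendrocyte lineage list (8 of 8 markers tested, none at 0) had a summed level of 12920, 16950 and 13290 normalized counts in shYthdf2 libraries 1, 2 and 4 and 5016, 16690 and 4785 in shCtrl. The list of astrocyte and Bergmann glia markers (8 of 8 tested, none at 0) summed to 10510, 9995 and 10230 in shYthdf2 and 7874, 12350 and 8000 in shCtrl. In both lists the shCtrl libraries 1 and 4 were the lowest, and shCtrl library 2 was at or above most shYthdf2 libraries. None of these 16 markers passed the adjusted threshold. In the astrocyte list 7 markers were fitted higher and 1 lower. Groups did not overlap for the lower one, Slc1a2 (log2 fold change -1.44, adjusted p = 0.0552 by edgeR), and for Aqp4 (0.87, adjusted p = 0.173) among the higher. The GABAergic interneuron list (6 of 6 tested, none at 0) summed to 7636, 9238 and 7603 in shYthdf2 and 6457, 6998 and 6367 in shCtrl. The groups did not overlap in this sum, but 4 of its 6 markers were fitted higher and 2 lower. Gad1 (log2 fold change 0.49) alone had groups that did not overlap, and Slc6a5 (-0.62) and Pvalb (-0.18) were the lower ones. Gad1 passed with the replicate block (adjusted p = 0.0450 by edgeR) but not without it (0.0876). The Purkinje cell list (5 of 6 tested) summed to 718, 1023 and 759 in shYthdf2 and 930, 860 and 917 in shCtrl. The microglial list (6 of 7 tested) summed to 1100, 342 and 1175 in shYthdf2 and 223, 873 and 200 in shCtrl, with P2ry12 at 0 in shCtrl libraries 1 and 4. Vascular and meningeal markers (7 of 8 tested) summed to 2733 to 7029 in shYthdf2 and 2216 to 5629 in shCtrl, and were highest in library 2 of both groups. Between the libraries numbered 2, the oligodendrocyte sums were 16950 in shYthdf2 and 16690 in shCtrl, the astrocyte sum was lower and the GABAergic sum higher in shYthdf2, and Ntrk2 and Ntrk3 were higher by the 0.30 and 0.56 given above. The part of these cell types in the values of Ntrk2 and Ntrk3 was not tested. The gene counts do not separate the full-length Trk receptors from the truncated forms that lack the kinase domain.

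Ngfr (ENSMUSG00000000120, chr11:95568818-95587735, minus strand) encodes p75NTR, which binds all neurotrophins and their precursors. It had 205, 303 and 204 normalized counts in shYthdf2 libraries 1, 2 and 4 and 366, 329 and 346 in shCtrl. The shYthdf2 library 2 was close to the shCtrl range, and the other two were well below it. Relative to shCtrl the log2 fold change was -0.55 (SE 0.19, 95% interval -0.99 to -0.11, adjusted p = 0.167 by edgeR, exact permutation p = 0.1). Without shYthdf2 library 2 it was -0.77 (adjusted p = 0.0370 by edgeR), where 4.7% of all genes were called. Without both libraries numbered 2 it was -0.81 (adjusted p = 7.37e-06), where 52.7% were called. In all, 3 of the 15 alternatives passed.

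Sort1 (ENSMUSG00000068747, chr3:108284082-108361511, plus strand) encodes sortilin, a receptor of the VPS10 family that sorts proteins between the Golgi, endosomes and the cell surface and binds neurotrophin precursors. It had 4090, 3801 and 4209 normalized counts in shYthdf2 libraries 1, 2 and 4 and 4425, 4942 and 4680 in shCtrl. The groups did not overlap, by a margin smaller than the range within either of them. Its log2 fold change was -0.22 (SE 0.09, 95% interval -0.43 to 0.0043, adjusted p = 0.255 by edgeR, exact permutation p = 0.1). Of the 15 alternatives 1 passed, without both libraries numbered 2 (log2 fold change -0.14, adjusted p = 0.00622 by edgeR), where 52.7% of all genes were called. The adjusted p reached 0.537 without shYthdf2 library 1, where 0 genes were called.

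**Figure D2:**
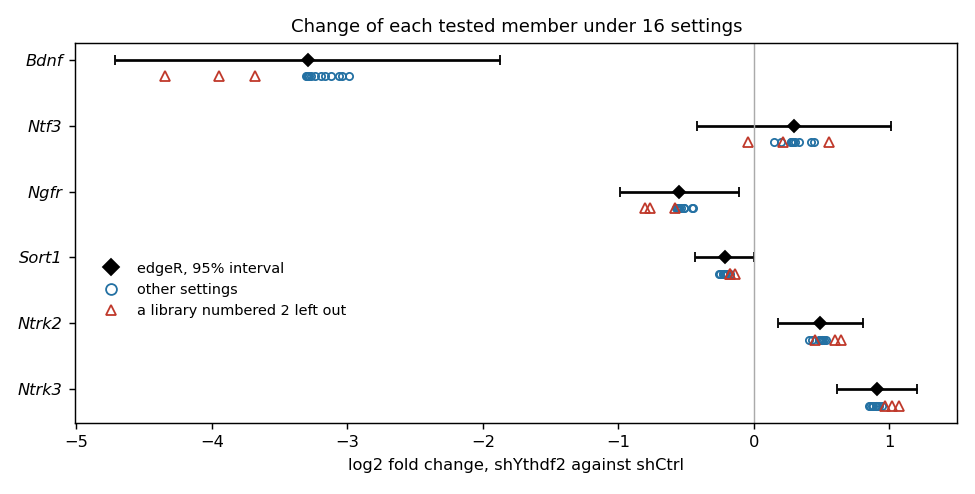
Log2 fold change of shYthdf2 against shCtrl (x axis) for the 6 tested genes, with edgeR's value and 95% interval as diamonds and bars, and the 15 alternatives below each as circles or, where a library numbered 2 was left out, triangles. Bdnf ran from -4.35 to -2.99 and Ntrk3 from 0.85 to 1.07, and Ntf3 was the only gene with a value on each side of 0.

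The 6 genes that passed the filter were set against all 17214 genes tested. One of the 6 was past the adjusted threshold, as were 0.604% of all genes (42 higher and 62 lower). Bdnf, Ngfr, Ntrk2 and Ntrk3 had an unadjusted p under 0.05, as did 20.1% of all genes. In 5 of the 6 the groups did not overlap, as in 26.0% of all genes. With the replicate number as a block, Ntrk3 remained the only one past the threshold (adjusted p = 0.0496), against 1.35% of all genes, and Bdnf was at an adjusted p of 0.0754. The median size of the log2 fold change over all genes was 0.25, and the median itself was 0.01.

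Levels of different genes were compared as RPKM, the TMM-normalized counts scaled by the merged length of a gene's exons and by library size. In both groups the order began with Sort1, Ntrk2 and Ntrk3. In shYthdf2 the level per length was 28.1 for Sort1, 23.7 for Ntrk2, 11.2 for Ntrk3, 5.63 for Ntf3, 3.63 for Ngfr, 0.343 for Bdnf and 0.0134 for Ntf5, and of these neighbours only Ntf3 and Ngfr had overlapping libraries. In shCtrl it was 32.6 for Sort1, 16.9 for Ntrk2, 5.98 for Ntrk3, 5.31 for Ngfr, 4.59 for Ntf3, 3.40 for Bdnf and 0.0540 for Ntf5, where Ngfr overlapped with Ntf3 and Ntf3 with Bdnf. By their means Sort1, Ntrk2 and Ntrk3 exceeded every ligand in both groups, whereas Ngfr was close to Ntf3. The ratio of Bdnf to Ntf3 per length was 1.12, 0.207 and 1.21 in shCtrl libraries 1, 2 and 4 and 0.0563, 0.0746 and 0.0411 in shYthdf2. The ratio of Ntrk2 to Ntrk3 per length was 2.68, 3.13 and 2.63 in shCtrl and 1.92, 2.63 and 1.90 in shYthdf2, with overlapping groups. The exons of all transcripts were merged to 19292 bases for Ntrk2 and 30170 bases for Ntrk3, which lowers their level per length relative to genes with shorter merged exons, such as Ntf3 with 1714.

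**Figure D3:**
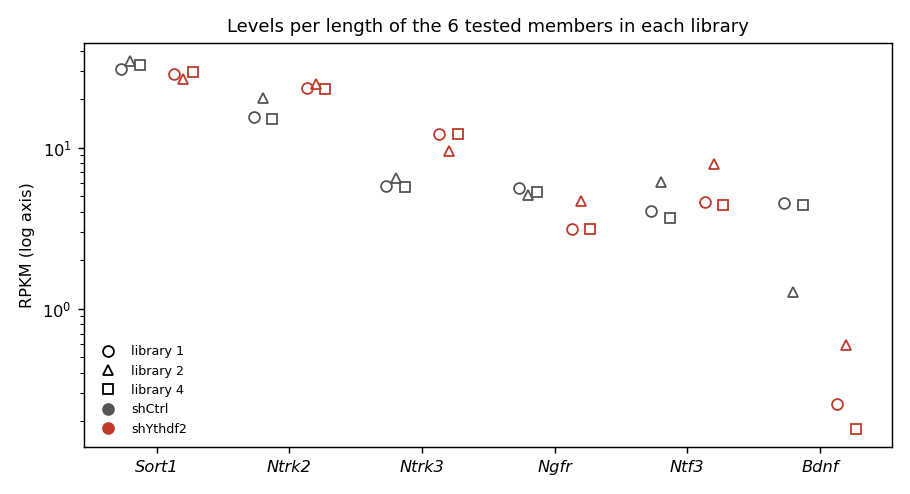
RPKM, that is counts scaled by exon length and library size (log y axis), of the 6 tested genes in each library, with shCtrl in grey and shYthdf2 in red. Sort1 and Ntrk2 were the highest in every library, and Bdnf spanned 0.18 in shYthdf2 library 4 to 4.50 in shCtrl library 1.

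The genes whose pattern over the 6 libraries was most like that of Bdnf were ranked by the root mean square difference of centred log2 normalized counts, among 12561 genes with a mean of at least 50. The nearest was Neb (0.13), which encodes the actin-binding protein nebulin known from muscle. It had 185, 442 and 168 normalized counts in shYthdf2 libraries 1, 2 and 4 and 3196, 924 and 3312 in shCtrl. Next came Nr4a3 (0.30), a nuclear receptor induced by neuronal activity, Vgf (0.34), a secreted neuropeptide precursor, Trim66 (0.40), a tripartite motif protein, and Pcsk1 (0.44), a convertase that cleaves precursors in secretory granules. Their log2 fold changes were -3.44 for Nr4a3, -3.22 for Neb, -3.18 for Pcsk1, -2.93 for Vgf and -2.76 for Trim66, and Nr4a3 alone passed the threshold (adjusted p = 0.0430 by edgeR), though not with the replicate block (0.0519). All 5 had library 2 as the lowest of the shCtrl group and the highest of the shYthdf2 group, as Bdnf did. The 5 genes were picked for their nearness to Bdnf in these libraries. This order and the size of their fold changes therefore follow from the choice. None of the other members had a log2 fold change above 1 in size, so no likeness was sought for them.

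**Figure D4:**
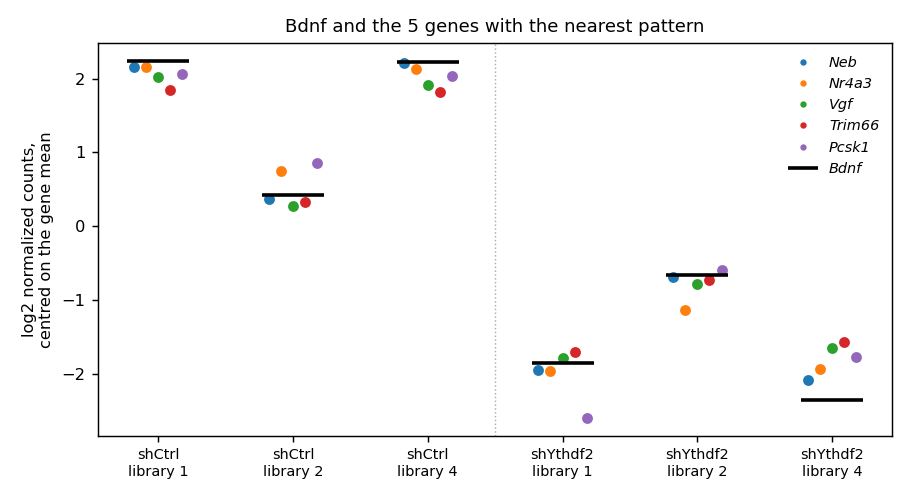
Log2 normalized counts centred on each gene's mean (y axis) in the 6 libraries, with Bdnf as a black bar and the 5 nearest genes as points. The 5 genes were picked for the shape of Bdnf and so share it. The shCtrl libraries 1 and 4 were highest and shCtrl library 2 was next, then shYthdf2 library 2 and shYthdf2 libraries 1 and 4.

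Activity-regulated genes were set beside Bdnf as a list. The list was written with earlier results of these data known, so its counts are a description and not an independent test. Of 26 tested, 24 had a lower and 2 a higher fitted level after KD, with a median log2 fold change of -1.48, and 4 passed the threshold, all lower, against 0.604% of all genes. These were Npas4, an activity-induced transcription factor (-4.89), Nr4a3 (-3.44), the AP-1 subunit gene Fosl2 (-2.51) and Ier2 (-1.48), with adjusted p-values of 0.0430, 0.0430, 0.0447 and 0.0496 by edgeR. With the replicate block 8 of the list passed, all lower, against 1.35% of all genes, and Nr4a3 (adjusted p = 0.0519) and Fosl2 (0.0525) were no longer among them. Npas4 had 241, 215 and 270 normalized counts in shYthdf2 libraries 1, 2 and 4 and 9838, 1926 and 9753 in shCtrl. As for Bdnf, shCtrl library 2 was the lowest of its group. Unlike for Bdnf, where it was the highest, shYthdf2 library 2 was also the lowest of its group for Npas4.

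The other genes of the pathway were counted in lists by role. Of 78 tested, 30 had a higher and 48 a lower fitted level, with a median log2 fold change of -0.07, and 0 passed the adjusted threshold of edgeR. An unadjusted p under 0.05 was reached by 3 that were higher and 19 that were lower, where it was reached by 20.1% of all genes. DESeq2 called 14, where it called 7.67% of all genes. With the replicate block 2 passed, Sorcs1 and Hap1.

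Proneurotrophin processing and release was the list with the largest single differences. Of 17 tested genes, 8 were fitted higher and 9 lower, with a median of -0.20. Pcsk1 had 13.6, 56.2 and 24.4 normalized counts in shYthdf2 libraries 1, 2 and 4 and 358, 155 and 352 in shCtrl (log2 fold change -3.18, SE 0.54, adjusted p = 0.0539 by edgeR). Scg2, a granin of secretory granules, had 2494, 3164 and 2477 in shYthdf2 and 6400, 4371 and 6482 in shCtrl (-1.08, SE 0.18, adjusted p = 0.0527). Hap1, the huntingtin-associated protein that takes part in the transport of BDNF vesicles, had 4280, 4983 and 4385 in shYthdf2 and 1645, 2707 and 1667 in shCtrl (1.18, SE 0.20, adjusted p = 0.0552, with the block 0.0445). In each of these 3 genes shCtrl library 2 was the shCtrl library nearest to the shYthdf2 group. Groups did not overlap in 2 higher and 5 lower genes of the list, these 3 included, and in 26.0% of all genes. Mmp3, a matrix protease, had few counts (log2 fold change -1.20, adjusted p = 0.174), and after Hap1 the higher genes with the smallest p-values were Pcsk5 (0.46) and the vesicle priming factor Cadps (0.12). Pcsk1 and Scg2 are in the activity-regulated list as well.

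Of the 4 VPS10 receptors related to Sort1, 2 were fitted higher and 2 lower. Sorcs1 had 987, 872 and 951 normalized counts in shYthdf2 libraries 1, 2 and 4 and 1535, 1279 and 1595 in shCtrl (log2 fold change -0.65, SE 0.12, adjusted p = 0.0572 by edgeR, with the block 0.0450). Groups did not overlap for Sorcs1 and for Sorcs2, as in 26.0% of all genes. Sorcs2, which is also known to bind the BDNF precursor, was at -0.84 (SE 0.26, adjusted p = 0.143), Sorcs3 at 0.70 (SE 0.32, adjusted p = 0.280) and Sorl1 at 0.39 (SE 0.31, adjusted p = 0.529).

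Among partners and cleavage enzymes of p75NTR, 3 of 13 tested were fitted higher and 10 lower, with a median of -0.08. Among the lower genes, Arhgdia, which encodes an inhibitor of small GTPases, was at a log2 fold change of -0.59 (adjusted p = 0.0654 by edgeR) and the zinc finger gene Prdm4 at -0.20 (adjusted p = 0.378). The 3 higher genes were the co-receptor gene Lingo1 (0.41) and the sheddase genes Adam17 (0.24) and Adam10 (0.21), with unadjusted p-values above 0.05.

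Downstream of the Trk receptors, the Ras-MAPK and PI3K-Akt arms had 6 of 22 tested genes fitted higher and 16 lower, with a median of -0.21. The kinase gene Akt1 was at a log2 fold change of -0.53 (adjusted p = 0.0839 by edgeR), Nras at -0.59 (adjusted p = 0.0965) and the ribosomal S6 kinase gene Rps6ka2 at -0.84 (adjusted p = 0.108). Creb1, which encodes the factor CREB, was at 0.33 (adjusted p = 0.147) and Rps6ka1 at 0.23 (adjusted p = 0.605). The list of adaptors and scaffolds had 10 of 21 fitted higher and 11 lower, with a median of -0.02. Its adaptor genes with the smallest p-values were Shc2 (-0.47, adjusted p = 0.0974), Sh2b2 (-0.49, adjusted p = 0.0998) and Sh2b1 (-0.39, adjusted p = 0.113), and on the higher side Gab1 (0.20), Frs2 (0.14) and Shc4 (0.39).

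**Figure D5:**
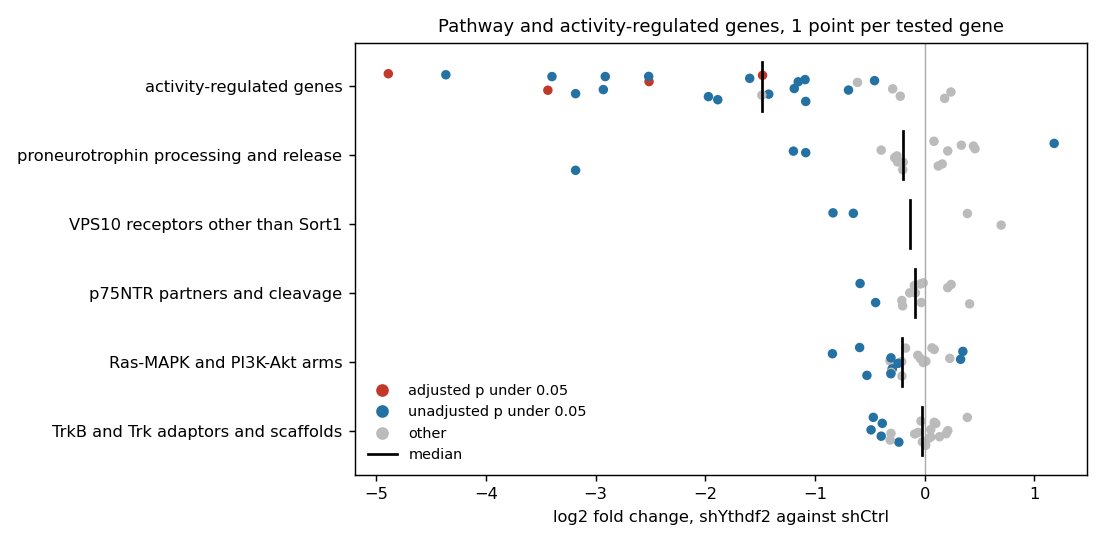
Log2 fold change of shYthdf2 against shCtrl (x axis) for every tested gene of the 5 pathway lists and the activity-regulated list (y axis, with random vertical scatter), with the median of each list as a black line. The activity-regulated list had a median of -1.48 and held all 4 genes past the adjusted threshold, and the medians of the pathway lists lay between -0.21 and -0.02.

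The sequence GGACT, a common form of the m6A consensus, was counted in the longest coding transcript of each member. It was found 25 times in 19703 bases of Ntrk3 (1.27 per kilobase), 5 times in 8744 bases of Ntrk2 (0.572), 15 times in 6836 bases of Sort1 (2.19), 4 times in 3446 bases of Ngfr (1.16), 3 times in 1963 bases of Ntf5 (1.53), 3 times in 4266 bases of Bdnf (0.703) and 0 times in 1483 bases of Ntf3. Over 13719 transcripts of tested coding genes the median was 1.05 per kilobase, with quartiles of 0.656 and 1.52. Ntrk3 and Ngfr lay between the quartiles above the median, Sort1 and, narrowly, Ntf5 above the upper quartile, Bdnf just above the lower quartile, and Ntrk2 and Ntf3 below it. These matches are letters in the reference and not measured m6A sites.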

How the data were processed

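The deposited values are raw counts per gene, which the authors obtained, by the paper's methods, by mapping filtered reads to GRCm38 with HISAT and TopHat2 and counting them with HTSeq. The submitters' processing notes name Bowtie 0.12.2 and mm9 in their place, and the library kit also differs between labels and paper, so the steps behind the counts are not settled. The setting for strand is not given in the sources used here. Genes annotated inside or antisense to members had at most 76 counts, against at least 2972 for Ntrk3, the member they overlap, and at most 5 against at least 20 for Bdnf. Groups followed the library names and not the contradicting titles.

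The test was that of edgeR 4.0.16, run in R 4.3.3 (TMM, filterByExpr with a minimum count of 10 and a minimum total of 15, quasi-likelihood test, Benjamini-Hochberg adjustment over 17214 genes, threshold 0.05). DESeq2 1.42.0, limma-voom (limma 3.58.1), RLE size factors, library size alone, other filters, a replicate block, a term for the libraries numbered 2 and left-out libraries were alternatives. The two-sided exact permutation test has 10 splits. P-values measure the spread between these libraries, which may be technical, and depth limits the genes with few counts. Deviations from the group means correlated at 0.252, 0.360 and 0.322 between libraries sharing the numbers 1, 2 and 4. These values cannot show pairing, because the libraries numbered 2 stood apart in both groups and correlations across different numbers were not computed. No label says what a number stands for, and the replicate block was an alternative to the main fit.

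Members, lists and tests were chosen with earlier results of these data known. In each pathway list, genes past the threshold and the 3 higher and 3 lower genes with the smallest p-values were named, except for a few that are not reported here but enter the counts. In the activity-regulated list only those past the threshold are given. Symbols came from the annotation for 52489 of 53421 genes. Python 3.11.15 with pandas 2.3.3 and matplotlib 3.10.9 was used for sequences and plots.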

Additional observations from a re-analysis of the deposited data

How the results depend on the processing

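Of the 6 neurotrophin genes tested, 1 was past the adjusted threshold with edgeR, 3 with DESeq2, 0 with limma-voom, 2 with no filter and 4 with a term for the libraries numbered 2, and between 0 and 5 when libraries were left out. Of the pathway genes, 0 were past it with edgeR, 1 with library size alone, 14 with DESeq2, 7 with no filter, 2 with the replicate block and 27 with a term for the libraries numbered 2, and between 0 and 56 when libraries were left out. The highest counts, 5 and 56, came from leaving out both libraries numbered 2, where 9186 of all genes (52.7%) were called, and the lowest from leaving out a library numbered 1 or 4, where 0 were called. The log2 fold change of Ntf3 ran from -0.0414 to 0.5556 over the left-out libraries, and the first of these, without shYthdf2 library 2, reversed its sign. The directions of Bdnf, Ngfr, Ntrk2, Ntrk3 and Sort1 were the same under all 15 alternatives. Over all genes, 104 were called with edgeR, 232 with the replicate block, 1320 with DESeq2, 24 with limma-voom, 639 with no filter and 3799 (22.1%) with a term for the libraries numbered 2, and the block changed the call of no neurotrophin gene. The cause of these differences was not tested. Ntf5, with at most 7 counts in a library, could not be compared at this depth.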
